A study of Mus musculus with 6 samples.

Results

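Striatal projection neuron and lateral ganglionic eminence (LGE) genes were followed in sorted cells of the Nkx2-1 lineage with and without Sip1, the transcription factor now called Zeb2. The 10 genes were taken by symbol from the deposited count table of 36291 gene rows, namely Penk, Tac1, Sp9, Ebf1, Ikzf1, Foxp1, Foxp2, Meis1, Meis2 and Bcl11b, and all 10 passed the filter on low counts that left 13835 genes for testing. The knockout (KO) group was 3 libraries in which Sip1 was deleted through Nkx2-1-iCre, and the wild-type (WT) group was 3 libraries. Both groups were green fluorescent cells targeted by the same Nkx2-1-iCre driver, sorted by FACS from embryonic telencephalon (E14.5, Swiss strain). The driver limits the deletion to cells with a history of Nkx2-1 expression, largely the medial ganglionic eminence (MGE) and its descendants, and the labels describe no separate sample of the LGE. The labels give neither the deleted part of Sip1 nor the other alleles. The libraries bear a K number (K77, K79 or K80), each number on 1 KO and 1 WT library, and the labels do not say what the number stands for or whether libraries came from separate embryos. The p-values therefore measure the spread between these libraries.

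The LGE lies beside the MGE in the ventral forebrain and gives rise to the projection neurons of the striatum and to interneurons of the olfactory bulb. Striatal projection neurons fall into a direct pathway class, which makes the tachykinin precursor Tac1 and the D1 dopamine receptor, and an indirect pathway class, which makes the enkephalin precursor Penk and the D2 dopamine receptor. Sp9, Ebf1, Ikzf1, Foxp1, Foxp2, Meis1, Meis2 and Bcl11b encode transcription factors that are used in the specification or maturation of these neurons, and several of them, Sp9 and Bcl11b among them, are also expressed in the MGE and its interneurons.

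Gene counts totalled 8323531 to 11069437 per KO library and 9196406 to 10558698 per WT library, and levels are given as CPM (counts scaled to library size by TMM). Values of a group are listed in the order K77, K79, K80. Zeb2 was at 343, 272 and 307 CPM in KO, against 705, 513 and 768 CPM in WT (log2 fold change -1.11, edgeR adjusted p = 0.00116). The MGE lineage markers were high in every library, with a summed level of 3172 to 3678 CPM in KO and 2653 to 2910 CPM in WT. Of these 5 markers Nkx2-1 (0.70) and Sox6 (0.35) rose on the log2 scale, while Lhx6 (0.05), Lhx8 (0.61) and Sst (0.06) did not pass the test. Across all genes tested 6.27% passed. Sox6 lost its call without KO K77, KO K79, KO K80 or WT K77 (adjusted p up to 0.0694). Lhx8 was called with the replicate block (edgeR adjusted p = 0.0098), without WT K79 (0.000215) and in the authors' deposited table (1.65e-08). The part of these markers in the results below was not tested. WT K79 stood apart in its sex-linked transcripts, with Xist at 2506 CPM, against 1.28 to 2.54 CPM in the KO libraries and 2.40 and 1.52 CPM in WT K77 and WT K80, and with Eif2s3y at 0 counts. Values without WT K79 are given below for the genes that passed the test. In cells sorted in bulk, fewer cells of a type and less RNA per cell cannot be told apart.

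Of the 10 genes, 2 rose and 1 fell in KO at an edgeR adjusted p under 0.05, and 7 were not called. Across all genes tested 6.27% were called, 3.64% higher and 2.62% lower. With the K number as a replicate block the same 2 rose and the same 1 fell, against 10.6% of all genes (6.13% higher and 4.45% lower), and without WT K79 they did so against 7.44% (4.6% higher and 2.84% lower). DESeq2 also called these 3, against 6.84% of all genes (4.03% higher and 2.81% lower), and the authors' deposited table called Penk, Sp9 and Ebf1, against 5.54%. The 2 that rose were Penk and Meis1, and the 1 that fell was Sp9. The median log2 fold change was -0.05 over the 10 genes and -0.0058 over all genes tested. In 3 of the 10 genes no KO library overlapped a WT library, against 23.2% of all genes tested (11.8% higher and 11.4% lower in KO), and in 4 of the 10 the KO library lay on the same side of its WT library in each K number, against 44.3% (22.4% higher and 21.9% lower).

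**Figure D1:**
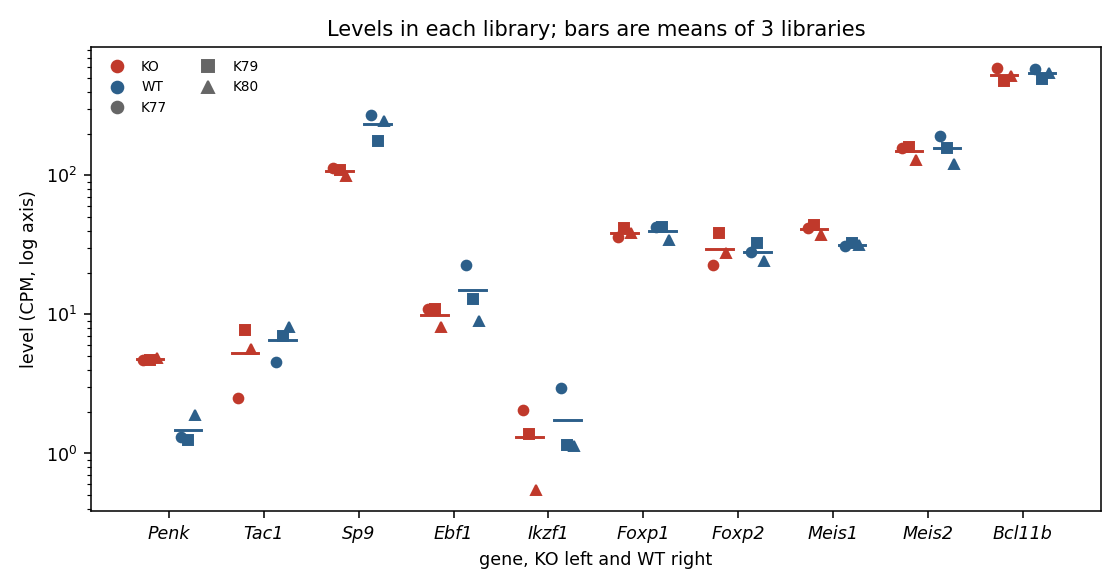
Level of each gene in CPM (log axis) in the 3 KO libraries (red, left) and the 3 WT libraries (blue, right), with the marker shape giving the K number and the bar the mean. The KO points of Penk and Meis1 all lie above, and those of Sp9 all below, the WT points, while the other 7 genes overlap.

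The promoter sequences of the 2 called transcription factor genes, Sp9 and Meis1, and of the most abundant uncalled one, Bcl11b, are shown because Zeb2, the deleted factor, is known to bind the short motif CACCT. Each is the 250 bases before the RefSeq start site in build GRCm38.p6, read 5′ to 3′ on the gene's strand, at chr2:73271676-73271925 on the plus strand for Sp9, chr11:19018970-19019219 on the minus strand for Meis1 and chr12:108003415-108003664 on the minus strand for Bcl11b. Capitals mark CACCT or its reverse complement AGGTG.
Sp9: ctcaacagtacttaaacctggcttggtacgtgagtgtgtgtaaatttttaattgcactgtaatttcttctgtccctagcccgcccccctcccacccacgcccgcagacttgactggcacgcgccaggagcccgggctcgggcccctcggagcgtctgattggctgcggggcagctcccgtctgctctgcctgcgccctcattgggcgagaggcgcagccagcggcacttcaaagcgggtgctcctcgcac
Meis1: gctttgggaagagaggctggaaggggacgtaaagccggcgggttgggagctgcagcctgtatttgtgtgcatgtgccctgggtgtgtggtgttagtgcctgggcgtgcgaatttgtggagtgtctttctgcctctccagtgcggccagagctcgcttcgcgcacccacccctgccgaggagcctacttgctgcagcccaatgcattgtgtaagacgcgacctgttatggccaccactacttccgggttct
Bcl11b: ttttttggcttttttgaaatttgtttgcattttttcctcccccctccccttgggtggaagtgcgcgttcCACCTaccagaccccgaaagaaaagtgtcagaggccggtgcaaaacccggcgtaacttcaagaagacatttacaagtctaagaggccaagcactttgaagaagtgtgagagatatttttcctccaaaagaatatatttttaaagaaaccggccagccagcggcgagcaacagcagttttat

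In these windows the motif occurred 0 times for Sp9, 0 times for Meis1 and 1 time for Bcl11b, at position -181 from the start site. RefSeq start sites were matched for 8 of the 10 genes, in 12 windows, and 3 of the 12 held the motif on either strand, 1 each for Foxp1, Ebf1 and Bcl11b. Of all 32851 windows of the same length 46.0% held it. A match in letters is a description and not a bound site, and a window without one says nothing about the factor. Penk and Foxp2 had no entry.

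Penk encodes proenkephalin, the precursor of the enkephalin opioid peptides and a marker of indirect pathway neurons. Its counts were 39, 48 and 54 in KO, against 12, 13 and 20 in WT. The corresponding levels were 4.69, 4.74 and 4.90 CPM in KO and 1.31, 1.25 and 1.90 CPM in WT, or 4.77 ± 0.108 CPM in KO and 1.48 ± 0.360 CPM in WT (SD, n = 3 each). The KO libraries were nearly level with each other, and the lowest of them was well above the highest WT library. The rise was 3.19-fold, a log2 fold change of 1.67 (SE 0.234, 95% interval 1.15 to 2.19, edgeR adjusted p = 0.00224). It kept its call when any 1 library was left out, with an adjusted p of 0.00385 to 0.0165, and the log2 fold change was 1.55 without WT K79. Within the K numbers the log2 ratio of KO to WT was 1.69 in K77, 1.78 in K79 and 1.28 in K80. The authors' deposited table gave a fold change of 3.21 with an adjusted p of 1.6e-05. With at most 54 reads in any library, Penk was among the least abundant of the 10 genes in WT.

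Tac1 encodes the precursor of substance P and neurokinin A, the peptides of direct pathway neurons. It had 2.53, 7.70 and 5.62 CPM in KO, against 4.58, 7.01 and 8.16 CPM in WT. The groups overlapped, and the K77 library was the lowest of its genotype in both. The log2 fold change was -0.30 (SE 0.341, edgeR adjusted p = 0.716), and its 95% interval ran from 0.478 to 1.38 times the WT level. The count ratio of Penk to Tac1 was 1.86, 0.615 and 0.871 in KO, against 0.286, 0.178 and 0.233 in WT. Every KO library thus had more Penk reads per Tac1 read than any WT library, a description that was not tested.

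Sp9 encodes a zinc finger factor of ganglionic eminence progenitors and young neurons, needed for indirect pathway neurons and for MGE-derived interneurons in mice. It had 113, 110 and 99.2 CPM in KO, against 274, 178 and 247 CPM in WT. The KO libraries were close together, and the WT library nearest to them was K79. Sp9 fell to 107 ± 7.11 CPM in KO, against 233 ± 49.6 CPM in WT (SD, n = 3 each), a 2.17-fold drop with a log2 fold change of -1.12 (SE 0.135, 95% interval -1.42 to -0.82, edgeR adjusted p = 0.00102). Without WT K79 the log2 fold change was -1.28 (adjusted p = 2.26e-05), and over all single libraries left out it ranged from -1.28 to -0.99. Within the K numbers the log2 ratio was -1.28 in K77, -0.69 in K79 and -1.31 in K80. Its paralogue Sp8, a factor of the dorsal LGE, was at 10.8, 12.6 and 9.07 CPM in KO, against 11.2, 8.45 and 4.18 CPM in WT, and was not called (0.46, SE 0.293, adjusted p = 0.477). The count ratio of Sp9 to Sp8 was 8.71 to 10.9 in KO libraries and 21.0 to 59.0 in WT libraries, with no overlap. The 59.0 was that of WT K80, which had 44 Sp8 reads. This ratio was not tested, and Sp9 itself did not overlap between the genotypes.

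Meis1 and Meis2 encode homeodomain factors of the TALE class that bind DNA together with other homeodomain proteins. Meis1 had 41.7, 43.8 and 37.3 CPM in KO, against 31.0, 32.4 and 31.3 CPM in WT. The WT libraries of Meis1 differed by a coefficient of variation of 2.43%, and the lowest KO library lay above the highest WT library. The rise was 1.29-fold, a log2 fold change of 0.37 (SE 0.0862, 95% interval 0.18 to 0.57, edgeR adjusted p = 0.0314). This call was lost without KO K77, KO K79, WT K77 or WT K80 (adjusted p 0.0812 to 0.148), and held without WT K79 (0.0484). In the authors' deposited table Meis1 had a log2 fold change of 0.37 and was not called (adjusted p = 0.0691). Meis2 had 159, 160 and 129 CPM in KO, against 191, 158 and 121 CPM in WT. For Meis2 the K80 library was the lowest of each genotype, and the genotypes overlapped (log2 fold change -0.07, edgeR adjusted p = 0.87, 95% interval -0.39 to 0.26). The count ratio of Meis1 to Meis2 was 0.263, 0.273 and 0.288 in KO and 0.162, 0.206 and 0.260 in WT. Every KO library had more Meis1 reads per Meis2 read than any WT library, the nearest being K77 of KO and K80 of WT. The Meis1 to Meis2 ratio was not tested.

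**Figure D2:**
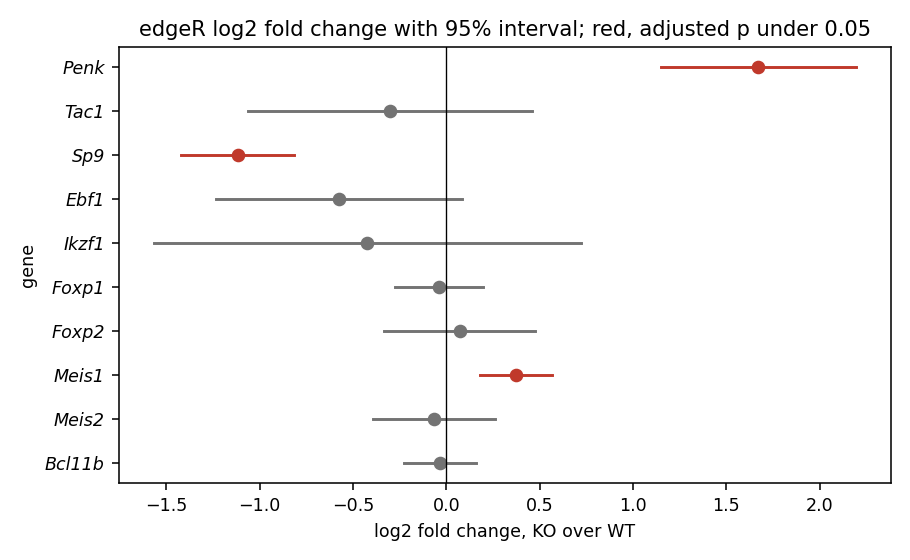
edgeR log2 fold change of each gene, KO over WT, with its 95% interval; red marks an adjusted p under 0.05. Penk (1.67) and Meis1 (0.37) lie right of 0 and Sp9 (-1.12) left of it, and the intervals of the other 7 genes include 0, with the shortest interval for Bcl11b, the widest for Ikzf1, and that of Ebf1 (-1.24 to 0.08) ending just above 0.

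The zinc finger gene Bcl11b, also called Ctip2, which acts in the maturation of striatal projection neurons, was the most abundant of the set. It had 588, 476 and 523 CPM in KO, against 578, 497 and 549 CPM in WT. Both genotypes covered the same range, with K77 the highest and K79 the lowest library of each. The log2 fold change was -0.03 (SE 0.0857, edgeR adjusted p = 0.891), and the 95% interval of 0.856 to 1.12 times WT leaves room only for small differences. Its paralogue Bcl11a was at 655 ± 54.3 CPM in KO and 522 ± 20.5 CPM in WT (SD, n = 3 each) and rose by 0.33 on the log2 scale (adjusted p = 0.0215), a call that leaving out either KO K77 or KO K80 ended (adjusted p up to 0.0742).

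The forkhead genes Foxp1, expressed across striatal projection neurons, and Foxp2, which is richer in the direct pathway class, overlapped between the genotypes. Foxp1 had 36.3, 41.6 and 38.3 CPM in KO, against 42.9, 42.8 and 34.1 CPM in WT (log2 fold change -0.04, edgeR adjusted p = 0.891, 0.826 to 1.14 times WT at 95%). Foxp2 had 22.7, 38.7 and 27.5 CPM in KO, against 28.2, 32.4 and 24.2 CPM in WT (0.07, adjusted p = 0.886, 0.794 to 1.39 times WT). K79 was the highest library of each genotype for Foxp2. The sign of both fold changes turned when single libraries were left out.

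Ebf1, a helix-loop-helix factor of the early B-cell factor family, acts in the differentiation of direct pathway neurons. It had 10.9, 10.9 and 8.16 CPM in KO, against 22.8, 13.0 and 9.02 CPM in WT. Ebf1 was lower in KO in each K number, but WT K80 lay below 2 of the 3 KO libraries, and WT K77 was far above all other libraries. The log2 fold change was -0.58 (SE 0.296, 95% interval -1.24 to 0.08, edgeR adjusted p = 0.35), and without WT K77 it was -0.14 (adjusted p = 0.831). In the authors' deposited table Ebf1 was called lower, with a fold change of 0.670 and an adjusted p of 0.0418. WT K77 also had the highest summed level of 11 cortical glutamatergic markers, 509 CPM, against 269 to 345 CPM in KO and 381 and 237 CPM in WT K79 and WT K80. All 11 were above 0 in every library. By edgeR 0 of the 11 were called, against 6.27% of all genes tested, and DESeq2 also called 0. An unadjusted p under 0.05 was found for 1 of the 11, against 18.4% of all genes tested. Without WT K80 edgeR called 1 lower. The authors' deposited table called 3 of the 11 lower, Tbr1 (fold change 0.744, adjusted p = 0.00181), Neurod2 (0.745, 0.00576) and Neurod6 (0.763, 0.0043), which were named after their values were seen. The part of these markers in the Ebf1 values was not tested.

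Ikzf1, which encodes the zinc finger protein Ikaros and is known from mouse work in enkephalin-positive striatal neurons, had the lowest level of the 10 per kb of exon. Its counts were 17, 14 and 6 in KO, against 27, 12 and 12 in WT. The groups overlapped, with K77 the highest library of each. The log2 fold change of -0.42 had an SE of 0.513 (edgeR adjusted p = 0.74), and its 95% interval ran from 0.338 to 1.65 times WT.

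**Figure D3:**
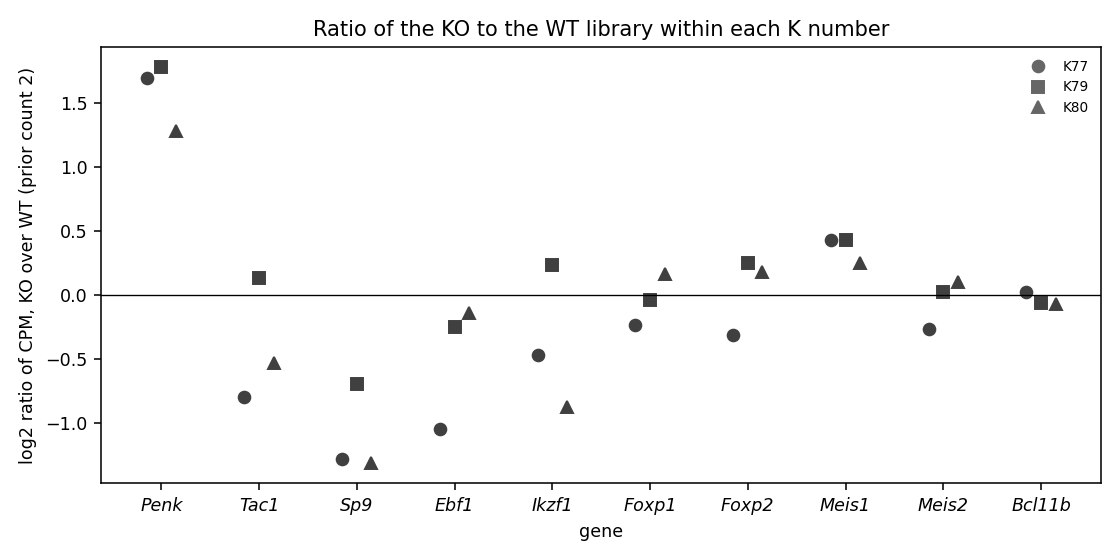
Log2 ratio of the KO to the WT library within each K number (marker shape), computed with a prior count of 2. All 3 points lie above 0 for Penk and Meis1 and below 0 for Sp9 and Ebf1, and the K77 and K80 points of Sp9 lie lower than its K79 point.

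Levels can be compared between genes only per length, so CPM was divided by the kilobases of exon that GENCODE M21 gives each gene, which is not the authors' annotation. On the CPM per kb scale Bcl11b stood first in both genotypes, at 65.2 ± 6.92 in KO and 66.7 ± 5.07 in WT, followed by Sp9 (21.3 ± 1.41 in KO and 46.1 ± 9.84 in WT) and Meis2 (12.4 ± 1.45 in KO and 13.0 ± 2.92 in WT), each separated from the next in every library. Meis1 had rank 4, separate from the gene below it in KO but overlapping Foxp1 in WT. Penk had rank 5 in KO, at 2.92 ± 0.0660, where it overlapped Foxp1, and rank 9 in WT, at 0.909 ± 0.220, where it overlapped Ebf1. Ikzf1 was last in both. Tac1 and Foxp2 were neighbours whose libraries overlapped in both genotypes.

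The genes annotated across these loci were looked at because whether reads were counted by strand is not stated. In GENCODE M21, exons of Sp9 overlap those of Cir1 on the opposite strand, and Cir1 was at 5.05, 5.03 and 4.90 CPM in KO, against 5.02, 5.18 and 6.08 CPM in WT (log2 fold change -0.12, edgeR adjusted p = 0.782). Cir1 thus lay far below the level of Sp9 in every library. Exons of Penk overlap A830012C17Rik, which had 2, 7 and 1 counts in KO and 0 counts in each WT library. Exons of Meis1 overlap Gm16140, which had at most 1 count in any library. How many reads of Penk, Sp9 and Meis1 were set aside as shared with these neighbours is not known.

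Other genes of striatal projection neurons moved in a few members. Of 23 listed, 21 were tested, 3 rose, 0 fell and 18 were not called by edgeR, against 6.27% of all genes called. DESeq2 called 2 higher and 1 lower, and the replicate block called 3 higher and 1 lower. An unadjusted p under 0.05 was found for 9 of the 21, against 18.4% of all genes tested. The median log2 fold change of the 21 was 0.20. Adcy5, the main striatal adenylyl cyclase, rose to 78.3 ± 4.33 CPM in KO, against 53.5 ± 2.87 CPM in WT (SD, n = 3 each), a log2 fold change of 0.55 (SE 0.0746, adjusted p = 0.00188). Isl1 was at 43.8, 70.7 and 70.6 CPM in KO, against 29.7, 42.6 and 23.1 CPM in WT. The LIM-homeobox gene Isl1, which acts in direct pathway and cholinergic neurons, rose by 0.96 (adjusted p = 0.0342) and Zfp521, which encodes a zinc finger factor, by 0.61 (0.0402). Isl1 and Zfp521 each lost the call without KO K79, KO K80, WT K77 or WT K80, with adjusted p up to 0.153 and 0.177. The dopamine receptor genes of the direct and indirect classes were sparse. Drd1a was at 1.68, 1.78 and 1.18 CPM in KO, against 2.18, 1.15 and 0.759 CPM in WT, and Drd2 was at 3.25, 4.34 and 6.26 CPM in KO and 2.18, 3.26 and 1.61 CPM in WT (edgeR adjusted p = 0.855 and 0.115). In the authors' deposited table Drd2 was called higher (fold change 1.96, adjusted p = 0.0199) and Drd1a was not. Both dopamine receptor genes overlapped between the genotypes and were named after their values were seen. So was Mn1, which was lower, at 262 CPM in KO and 329 CPM in WT (log2 fold change -0.33, edgeR adjusted p = 0.0559). Mn1 was called lower with the replicate block (edgeR adjusted p = 0.00653) and in the authors' deposited table (fold change 0.795, adjusted p = 0.00468).

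Genes of LGE progenitors and the dorsal LGE went both ways. All 13 listed were tested, and 2 rose, 2 fell and 9 were not called, against 6.27% of all genes called (3.64% higher and 2.62% lower). The median log2 fold change of the 13 was -0.02. Among those that rose was the progenitor factor gene Gsx2 (0.80, adjusted p = 0.0171), which lost its call without KO K77 (0.0513). Dlx6 overlaps the antisense gene Dlx6os1, and whether reads were counted by strand is not stated. If they were not, reads from the stretch they share cannot be told apart. How many such reads were set aside as ambiguous is not known. Dlx6os1 itself rose by 0.39 (adjusted p = 0.00615). The homeobox genes Dlx5 (-0.45, adjusted p = 0.0263) and Dlx6 (-0.40, 0.0164) fell. Without KO K79, KO K80 or WT K77 neither Dlx gene was called, and Dlx5 was also not called without WT K80, with adjusted p up to 0.130 for Dlx5 and 0.0754 for Dlx6. Gsx2 was at 24.0, 18.9 and 19.0 CPM in KO, against 13.5, 12.8 and 9.30 CPM in WT, with no overlap. Dlx1 (-0.02), Dlx2 (0.09), Tshz1 (0.08) and Etv1 (-0.02) were not called, and their log2 fold changes were near 0. The other uncalled genes were Gsx1 (0.40) and Sp8 (0.46) above 0, and Pax6 (-0.40), Sall3 (-0.09) and Aldh1a3 (-0.65) below 0.

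Relatives of the 10 genes and TALE partners numbered 23, of which 17 were tested. By edgeR 3 rose (4 with the replicate block), 1 fell and 13 were not called, against 6.27% of all genes called. The median log2 fold change of the 17 was 0.06. Pnoc, the precursor of the opioid-related peptide nociceptin, had 22.7, 24.5 and 25.7 CPM in KO, against 8.18, 8.93 and 8.64 CPM in WT. Its libraries were tightly grouped in both genotypes, and the 2.83-fold rise (log2 SE 0.113, edgeR adjusted p = 8.7e-05) held when any 1 library was left out (adjusted p up to 0.0014). Besides Bcl11a, Ebf4 rose by 0.45 (adjusted p = 0.0275). Ebf4 lost the call in 5 of the 6 fits that left out 1 library and kept it only without WT K79. The Ikaros relatives Ikzf2 (0.06), Ikzf4 (0.06) and Ikzf5 (0.04) were not called.

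In the list of neuropeptide receptors and processing enzymes 9 of 12 were tested. Of these 2 rose, 0 fell and 7 had no call, where 6.27% of all genes were called. Of the 9, 5 had an unadjusted p under 0.05, against 18.4% of all genes tested. By DESeq2 4 rose and 0 fell, and with the replicate block 4 rose and 1 fell. The median log2 fold change was 0.30. Pcsk2, a convertase that cuts proenkephalin and other prohormones into peptides, had 82.4, 76.98 and 64.5 CPM in KO, against 19.0, 20.2 and 18.0 CPM in WT. Each KO library had more than 3 times the highest WT level, and the log2 fold change was 1.97 (SE 0.107, edgeR adjusted p = 2.02e-05). Cpe, the carboxypeptidase that trims the cut peptides, rose by 0.36 (adjusted p = 0.0156), a call lost without KO K80 or WT K77 (up to 0.0970). The listed enzyme genes Pam (-0.27), Pcsk1 (-0.32) and Mme (-0.25) had log2 fold changes below 0 and were not called. With the replicate block edgeR called Pam lower (adjusted p = 0.0275).

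**Figure D4:**
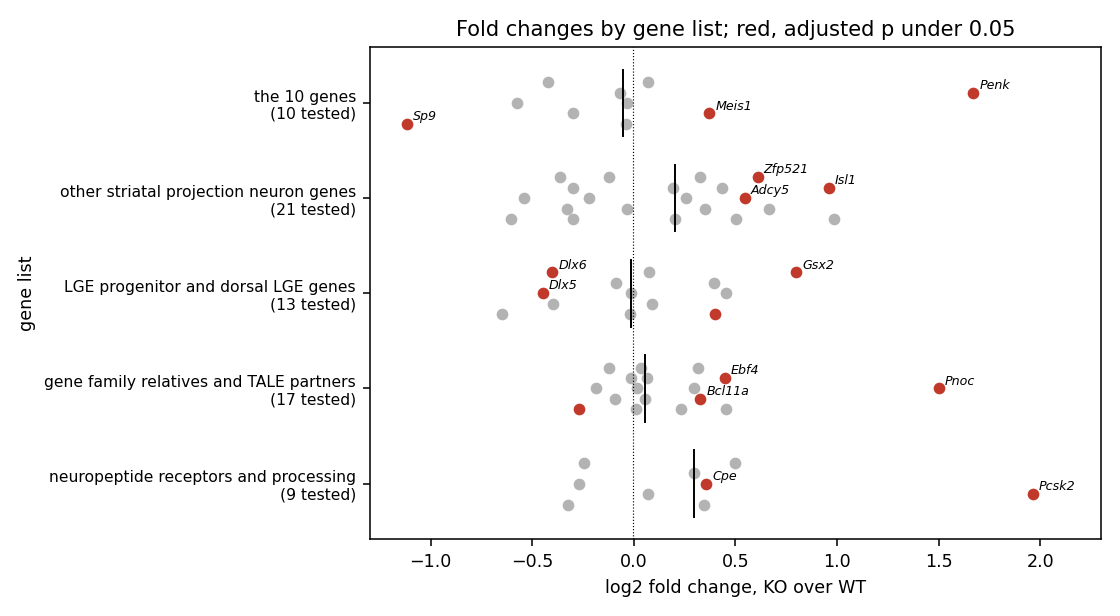
edgeR log2 fold change, KO over WT, of each tested gene by list, with called genes in red and most of them named, the list's median as a solid bar and the median of all tested genes as a dotted line. Pcsk2 (1.97), Penk (1.67) and then Pnoc lie farthest to the right, and Sp9 (-1.12) lies farthest to the left.

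The genes with the pattern most like Penk and Sp9 were taken from 11032 tested genes with a mean of at least 5 CPM, by the root mean square difference of mean-centred log2 CPM across the 6 libraries. For Penk they were Dbpht2 (0.13), Rhpn2 (0.14) and Sytl5 (0.15), with log2 fold changes of 1.46, 1.56 and 1.43. For Sp9 they were Scube1 (0.0846), Pde4dip (0.0851) and Sema3f (0.0869), with log2 fold changes of -1.12, -1.16 and -1.05. WT K79 was the lowest WT library for Sp9 and for each of these 3 genes. Genes picked by likeness over the same 6 libraries share such features and similar fold changes through the choice itself.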

How the data were processed

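RNA was sequenced from 6 libraries, 3 KO and 3 WT, with poly-A selection and single reads per the labels' protocols. The deposited files hold read counts per gene made by the authors, and the series table held the same counts in all 36291 rows. Build mm9 and the tools DESeq 1.2.2, TopHat 1.2.0 and HTSeq 0.5.3p3 are listed in the submitters' processing notes, without roles. Entries that name no gene were left out: ambiguous reads (1.94 to 1.99% of counts) and reads outside genes (19.7 to 21.8%). The authors' deposited comparison table holds ratios (fold changes), log2 ratios and p-values per the file headers. Its 2 groups are A and B, and B was taken as KO since all 777 calls it shares with edgeR run the same way.

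Genes were tested in R 4.3.3 with edgeR 4.0.16 (TMM, filterByExpr with a minimum count of 10, quasi-likelihood test, Benjamini-Hochberg adjustment at 0.05 over 13835 genes). SE is the log2 fold change over the square root of F, and can be too small at few counts. The common BCV (biological coefficient of variation) was 9.26%. Replicates were not duplicates: chi-square over its degrees of freedom was 3.61 to 4.44 for KO pairs and 5.69 to 10.0 for WT pairs. Deviations from the group mean correlated between the KO and WT library of one K number, at 0.254 (K77), 0.195 (K79) and 0.178 (K80). The number was therefore used as a block in an alternative fit. The main fit, which gave the edgeR values printed without mention of the block, did not use the number. The blocked fit is printed where it changes a call of a named gene or a count. Alternatives used RLE size factors, DESeq2 1.42.0, limma voom (limma 3.58.1), other filters, the block and each library left out. Leaving out both K79 libraries was added after the data had been seen. Scripts were tested on simulated data.

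The 10 genes and the lists were chosen with earlier results of these data known. Named were the 10 genes, Zeb2, up to 4 called genes per list by lowest p and the 3 nearest patterns. Other names were chosen after their values were seen. Some called genes of the lists are counted but not reported here by name. Promoter sequences are from RefSeq in GRCm38.p6, a later build than mm9.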

Additional observations from a re-analysis of the deposited data

How the results depend on the processing

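With the K number as a replicate block, the called genes among the 10 stayed at 2 higher (Penk and Meis1) and 1 lower (Sp9), and no call among them changed. Over the whole table the block gave 848 higher and 615 lower, against 504 and 363 without it. With no filter on low counts 546 genes were lower. Leaving out 1 library gave 270 to 645 higher and 175 to 399 lower. Of the 10 genes, 1 to 2 were called higher with 1 library left out and 1 without both K79 libraries, the lost call being Meis1 (adjusted p up to 0.154). Penk and Sp9 kept direction and call in all 13 alternatives, with log2 fold changes of 1.55 to 1.89 and -1.29 to -0.99.

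The 7 uncalled genes were called in none of these 13 alternatives. With 1 library left out the log2 fold change changed sign for Tac1 (-0.66 to 0.0045), Ikzf1 (-0.84 to 0.15), Foxp1 (-0.15 to 0.014), Foxp2 (-0.17 to 0.22, and -0.051 without both K79 libraries), Meis2 (-0.22 to 0.10) and Bcl11b (-0.11 to 0.036). The cause was not tested.

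Counts in the other lists moved more. For other striatal projection neuron genes, 5 rose with no filter and 1 to 5 with 1 library left out, and 1 fell by DESeq2, with no filter or with the block (0 to 1 with 1 library left out). For LGE genes 1 to 2 rose and 0 to 2 fell with 1 library left out, and 1 rose and 1 fell without both K79 libraries. For relatives and TALE partners 5 rose with no filter and 1 to 4 with 1 library left out, and 0 to 1 fell, with 0 without both K79 libraries. For neuropeptide receptors and processing, 4 rose by DESeq2, 5 with no filter, 4 with the block and 1 to 4 with 1 library left out, and 1 fell with no filter or the block and 0 to 1 with 1 library left out. Counts per library were 6 to 27 for Ikzf1, 12 to 54 for Penk and 21 to 86 for Tac1, and the effect of depth on their tests was not tested.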

Other observations

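Among further opioid genes, chosen after their values were seen, Oprk1, the kappa opioid receptor gene, was counted 2, 40 and 53 times in KO (in the order K77, K79, K80), against 5, 2 and 1 times in WT. KO K77 stood with the WT libraries, and the gene did not pass the filter on low counts. The authors' deposited table gave Oprk1 a fold change of 10.8 with an adjusted p of 6.09e-11. Pdyn, the prodynorphin gene of direct pathway neurons, was counted 7, 30 and 28 times in KO, against 8, 9 and 3 times in WT. It did not pass the filter either, and the authors' deposited table called it higher (fold change 3.14, adjusted p = 0.00329). In KO K77 both genes were lowest among the KO libraries, as Tac1 was, whereas Penk and Pnoc were level across the KO libraries.

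Markers of vascular, blood and immune cells were low. The summed level of 7 endothelial markers was 14.1 to 21.4 CPM in KO and 15.3 to 28.2 CPM in WT. That of 7 erythroid markers was 2.63 to 7.58 CPM in KO and 5.03 to 11.3 CPM in WT. That of 5 microglial markers was 2.18 to 3.01 CPM in KO and 2.69 to 3.49 CPM in WT. Hba-a1 and Hba-a2 were at 0 in all 6 libraries, while Hbb-y had 10 to 80 counts per library. The 0 values were not read as a level of blood cells, and their cause was not tested. By edgeR 0 of the 10 tested vascular, blood and immune markers were called, against 6.27% of all genes tested. Of these 10, 0 had an unadjusted p under 0.05, against 18.4% of all genes tested, and DESeq2 called 0. With the block 1 erythroid gene, Hbb-y, was called lower, as it was in the authors' deposited table (fold change 0.498, adjusted p = 0.00604). Of 3 GABAergic markers Gad2 rose (0.56), Slc32a1 fell (-0.53) and Gad1 (-0.12) was not called, against 6.27% of all genes called.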
